A study of Mus musculus with 10 samples.

Results

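Genes of proliferation and the cell cycle were followed in mouse left ventricle (strain C56Bl6, as the labels spell it). The set holds 37 genes, all present by symbol among the 55385 genes of the count table and all among the 18491 that passed the filter on low counts. Their roles are mitosis and the spindle (18 genes), DNA replication (8), the cyclins and kinases of the G1 and S phases (8) and the inhibitors of cyclin-dependent kinases (3). RNA of 10 libraries was sequenced after 6 weeks of diet. The Control group (5 libraries) ate a standard diet, and the HFpEF group (5 libraries) a high-fat diet combined with L-NAME, which blocks nitric oxide synthases. That regimen is a mouse model of heart failure with preserved ejection fraction. The labels name no genetic alteration in either group and give no age. Since no label ties a library to a mouse of its own, the p-values below speak for the variation among these 10 libraries.

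A cell that divides passes from G1, where D cyclins with Cdk4 or Cdk6 release E2F factors from the retinoblastoma protein, into S phase, where the MCM helicase opens DNA for copying, and then into mitosis under cyclin B and Cdk1. Inhibitors such as p21 (Cdkn1a), p27 (Cdkn1b) and p57 (Cdkn1c) hold the kinases back. Most cardiomyocytes leave the cycle soon after birth, and endothelial cells, fibroblasts and leukocytes make up much of the division that goes on in an adult ventricle.

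Total counts per library ran from 31286355 to 46108710. Cardiomyocyte markers (8 genes) summed to 26646 to 28563 CPM (counts per 1000000 of the TMM-adjusted library size) in Control and 25725 to 28072 in HFpEF. Of the 8, 1 (Tnnt2) was called lower (-0.22 ± 0.05, edgeR adjusted p = 0.0185), where 2.09% of all genes tested were. Of 4 atrial markers, Myl7, Sln and Myl4 had at most 13, 3 and 46 counts in any library. Nppa, the atrial natriuretic peptide gene that a stressed ventricle also expresses, had 462 to 2499 counts and fell in HFpEF with the groups apart (-1.19 ± 0.22, edgeR adjusted p = 0.0187). The groups were apart for Tnnt2 as well, which 2.93% of all genes tested had with HFpEF below. The 37 genes together took 406 to 451 CPM in Control and 416 to 472 CPM in HFpEF.

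None of the 37 genes differed between the groups by edgeR's quasi-likelihood test at a Benjamini-Hochberg adjusted p below 0.05. Over all genes tested, 5.33% were called, 3.24% higher and 2.09% lower in HFpEF. The smallest adjusted p was that of Cdk6 (0.0718), and 8 of the 37 had an unadjusted p below 0.05, 7 of them with a higher level in HFpEF, where 20.5% of all genes had such a p, 10.6% with a higher and 9.91% with a lower level. DESeq2 called 1 of the 37 (Cdk6, higher), where it called 926 of the 18491 genes tested higher. With limma voom 0 of the 37 were called. No gene of the set had its 2 groups apart in every library, which 3.88% of all genes had with HFpEF above and 2.93% with HFpEF below. The log2 fold change (HFpEF against Control) lay above 0 for 29 of the 37 genes, with a median of 0.28. Of all genes tested 47.2% lay above 0, with a median of -0.01.

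**Figure D1:**
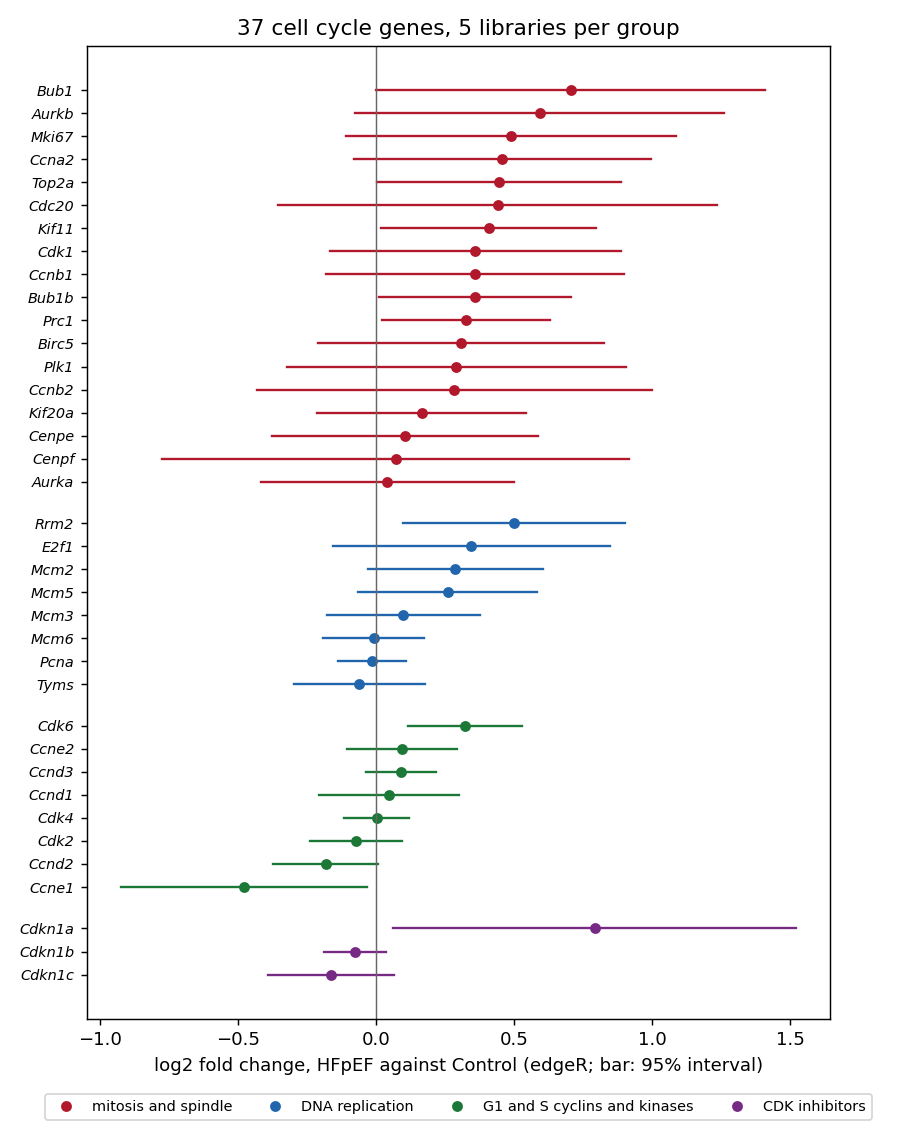
Log2 fold change of each of the 37 genes (x axis; points, HFpEF against Control, 5 libraries a group) with its 95% interval (bars), ordered by role. The 18 mitotic genes lie at or above 0.04, the median of the G1 and S cyclins and kinases is 0.02, and no gene passed an adjusted p of 0.05.

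The mitotic genes had low levels and a common direction without a call. All 18 had a log2 fold change above 0, from 0.04 (Aurka) to 0.70 (Bub1), with a median of 0.36, and 0 of 18 were called by edgeR (adjusted p from 0.21 to 0.941). For 9 of the 18 no library had more than 41 counts, and Ccnb1, for example, had 7 to 19. DESeq2 and limma voom also called 0 of the 18. In edgeR 4 of the 18 had an unadjusted p below 0.05, near the 20.5% of all genes tested that had one. Among the 3545 genes tested whose mean CPM was at or below the median of the mitotic genes, 42.6% had a log2 fold change above 0 and the median was -0.06. In bulk tissue, a change in the number of dividing cells and a change in RNA per cell cannot be told apart.

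Mki67 encodes Ki-67, the protein used to stain cells that are in cycle (chromosome 7, 135689784 to 135716361, mm10). It stood at 10.8, 5.30, 11.5, 12.1 and 12.03 CPM in Control 1 to 5 and at 10.05, 20.3, 14.4, 17.2 and 11.1 CPM in HFpEF 1 to 5. Control 2 was the lowest of the 10 libraries and HFpEF 2 the highest, and HFpEF 1 and HFpEF 5 lay among the Control libraries. The means were 10.3 ± 2.86 and 14.6 ± 4.25 CPM (SD, n = 5), a log2 fold change of 0.49 ± 0.26 (SE; 95% interval -0.11 to 1.09; edgeR adjusted p = 0.343).

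Top2a, the topoisomerase that untangles sister chromatids, had 2.53, 1.54, 2.86, 2.66 and 3.15 CPM in Control and 2.85, 5.17, 3.63, 3.26 and 2.57 CPM in HFpEF. Again Control 2 was lowest and HFpEF 2 highest, and the groups overlapped (0.45 ± 0.20, edgeR adjusted p = 0.239). Prc1, which bundles microtubules of the central spindle, had the smallest p of the mitotic genes, with 3.18, 1.98, 2.64, 3.05 and 3.53 CPM in Control and 3.44, 3.62, 3.47, 4.46 and 3.18 CPM in HFpEF. Its Control libraries 1 and 5 reached the range of HFpEF (0.33 ± 0.14, edgeR adjusted p = 0.21). Exons of Prc1 overlap the opposite-strand gene Rccd1 over 11.1% of their length.

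The remaining mitotic genes gave values of the same size with wide intervals. The checkpoint kinase Bub1 (0.70 ± 0.33) and the chromosomal passenger kinase Aurkb (0.59 ± 0.31) had the largest differences, on means of 0.395 and 0.358 CPM in Control. Cyclin A2 (Ccna2, 0.46 ± 0.25), the spindle motor Kif11 (0.41 ± 0.18) and the checkpoint protein Bub1b (0.36 ± 0.16) followed, each with an adjusted p of 0.221 or above. The mitotic kinase Cdk1 (0.36 ± 0.25), its partners Ccnb1 (0.36 ± 0.25) and Ccnb2 (0.28 ± 0.33), and Cdc20 (0.44 ± 0.37), which activates the anaphase-promoting complex, had 3 to 41 counts per library. Birc5 (survivin), the kinase Plk1 and the motor Kif20a lay between 0.17 and 0.31, and the kinetochore motor Cenpe (0.10 ± 0.23) and the spindle kinase Aurka (0.04 ± 0.22) near 0. Aurka turned below 0 without Control 1, Control 2 or HFpEF 2, and Cenpe without HFpEF 2 or HFpEF 4. Opposite-strand genes overlap the exons of Kif20a (Cdc23, 29.3% of their length) and Ccna2 (Exosc9, 12.5%).

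A few libraries held the extremes of the mitotic genes. Control 2 had the lowest level of the 10 libraries for 11 of the 18 genes, against 8.15% of all genes tested. HFpEF 2 had the highest for 8 of the 18, against 8.07%, and HFpEF 2 or HFpEF 4 for 15 of the 18, against 16.7%. These libraries were singled out after their values were seen. Leaving out Cenpf, the median over the 17 genes of the deviation from each gene's mean over all libraries was -0.71 in Control 2, 0.47 in HFpEF 2 and 0.45 in HFpEF 4 (log2 scale). It lay between -0.17 and 0.12 in the other 7 libraries. Cenpf was left out after its values were seen. With all 18 genes the median was -0.69 in Control 2, 0.47 in HFpEF 2 and 0.46 in HFpEF 4. Without Control 2 and HFpEF 2 together the median log2 fold change of the 18 genes was 0.21, and 15 of the 18 lay above 0. Without any 1 library it ran from 0.28 (HFpEF 4) to 0.42 (Control 3 or Control 4).

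**Figure D2:**
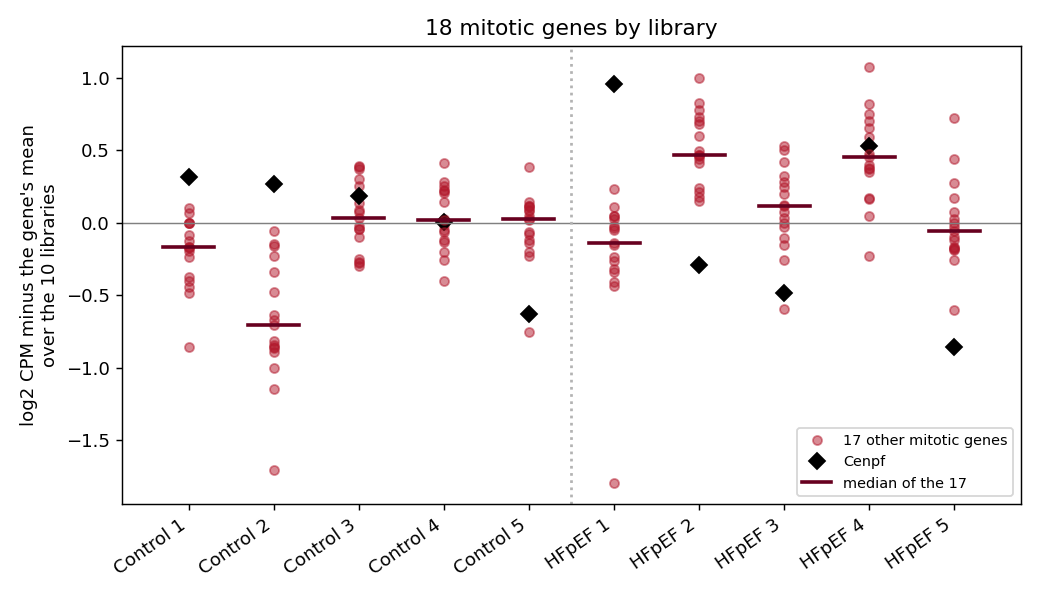
Log2 CPM of each mitotic gene minus that gene's mean over all 10 libraries (y axis) in each library (x axis); red points are 17 genes, the dark bars their median, and the black diamonds Cenpf. The median is -0.71 in Control 2 and 0.47 and 0.45 in HFpEF 2 and HFpEF 4, while Cenpf is highest in HFpEF 1 and lowest in HFpEF 5.

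Within the 18 mitotic genes of the set, Cenpf stood apart in level and in pattern. It encodes a large protein of the kinetochore and the nuclear envelope (chromosome 1, 189640606 to 189688086, mm10). Per kilobase of exon its level in Control was 1.69 CPM, against 1.03 for Mki67 and at most 0.387 for the other 16 mitotic genes. It had 30.9, 30.0, 28.3, 25.0 and 16.1 CPM in Control and 48.4, 20.3, 17.8, 35.9 and 13.7 CPM in HFpEF. The HFpEF libraries held both the highest and the lowest value of all 10, with HFpEF 1 and HFpEF 4 above every Control library. The means were 26.0 ± 6.02 and 27.2 ± 14.5 CPM (SD, n = 5), with a log2 fold change of 0.07 ± 0.37 (95% interval -0.77 to 0.92; edgeR adjusted p = 0.941). The sign turned without Control 5, HFpEF 1 or HFpEF 4. In Control 2, where 17 of the 17 other mitotic genes lay below their own mean, Cenpf lay above its mean. Both Control 2 and Cenpf were singled out after their values were seen. Of 38 tested genes of mitosis and cytokinesis outside the set, 4 lay above their own mean in Control 2. No annotated gene overlaps the exons of Cenpf.

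Promoters of mitotic genes are known for CCAAT boxes, bound by NF-Y, and for the cell cycle genes homology region (CHR), through which the DREAM complex represses them in resting cells and B-MYB and FOXM1 act with MuvB in dividing cells. The 250 bases before the RefSeq start (build GRCm38, 5′ to 3′ on the gene's strand) are shown for 4 genes and for Cenpf. The 4 genes had their lowest level in Control 2, where Cenpf lay above its mean. Capitals mark TTTGAA or TTCGAA (CHR), CCAAT, and TTTCGCGC or TTTGGCGC (E2F), each searched on both strands; none of these overlapped another type in the sequences shown.
Mki67 (chr7:135716380-135716629, minus strand): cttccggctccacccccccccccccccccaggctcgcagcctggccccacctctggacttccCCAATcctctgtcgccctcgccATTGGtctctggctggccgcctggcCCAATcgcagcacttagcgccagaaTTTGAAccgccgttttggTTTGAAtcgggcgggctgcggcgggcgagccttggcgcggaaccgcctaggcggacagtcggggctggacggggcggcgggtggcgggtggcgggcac
Top2a (chr11:99024190-99024439, minus strand): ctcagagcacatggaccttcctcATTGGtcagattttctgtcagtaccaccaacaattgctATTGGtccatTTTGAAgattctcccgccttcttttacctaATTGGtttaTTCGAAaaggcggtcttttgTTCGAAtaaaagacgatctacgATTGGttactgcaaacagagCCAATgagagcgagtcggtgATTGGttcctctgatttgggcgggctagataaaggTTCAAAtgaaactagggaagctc
Cdk1 (chr10:69352913-69353162, minus strand): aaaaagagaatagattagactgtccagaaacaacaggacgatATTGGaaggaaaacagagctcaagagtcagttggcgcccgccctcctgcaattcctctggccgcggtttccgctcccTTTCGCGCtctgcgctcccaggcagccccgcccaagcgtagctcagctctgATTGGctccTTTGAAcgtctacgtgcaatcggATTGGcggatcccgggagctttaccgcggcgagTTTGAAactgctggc
Ccnb2 (chr9:70421555-70421804, minus strand): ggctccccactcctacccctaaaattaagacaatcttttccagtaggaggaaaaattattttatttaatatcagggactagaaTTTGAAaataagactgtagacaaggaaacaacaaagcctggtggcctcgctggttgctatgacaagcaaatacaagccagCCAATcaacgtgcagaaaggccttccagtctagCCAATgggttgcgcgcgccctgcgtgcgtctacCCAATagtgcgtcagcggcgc
Cenpf (chr1:189688087-189688336, minus strand): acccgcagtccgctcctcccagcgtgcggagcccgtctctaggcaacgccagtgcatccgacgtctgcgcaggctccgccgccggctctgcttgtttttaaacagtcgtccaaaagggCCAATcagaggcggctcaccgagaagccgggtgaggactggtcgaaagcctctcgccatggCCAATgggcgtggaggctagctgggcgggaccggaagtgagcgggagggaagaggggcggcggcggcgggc

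The window searched, 250 bases before to 50 after the start, was given for 15 of the 18 mitotic genes (not Ccna2, Aurkb and Kif20a). A CHR was found in 12 of the 15 and a CCAAT in 14, and 12 held both. Of the 27025 genes in the table of promoters, 21.7% held a CHR, 41.1% a CCAAT and 8.61% both in 1 window. Top2a had 4 CHR and 6 CCAAT matches, the nearest CHR at -23. Mki67 had CHR matches at -116 and -98 and Cdk1 at -71 and -15, the first of them between CCAAT boxes on the opposite strand at -80 and -48. Cenpf held the same kinds of letters, with CCAAT at -132 and -71 and a CHR at 3 bases after the start, beyond the part shown. A match is a description of the sequence and not a bound site.

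Of the DNA replication genes, 5 of 8 had a log2 fold change above 0 with a median of 0.18, and 0 of 8 were called by edgeR. An unadjusted p below 0.05 was found for 1, where 20.5% of all genes tested had one. DESeq2 and limma voom called 0. The median was 0.05 without Control 2 and HFpEF 2, 0.34 without Control 4 and 5, and 0.12 (HFpEF 2 or Control 3) to 0.29 (Control 5) without 1 library. The gene with that p was Rrm2, the small subunit of ribonucleotide reductase that makes deoxynucleotides in S phase. Rrm2 had 1.16, 0.859, 1.07, 1.22 and 1.55 CPM in Control and 1.10, 2.12, 1.62, 1.73 and 1.82 CPM in HFpEF. HFpEF libraries 2 to 5 lay above every Control library, and HFpEF 1 lay within their range. The means were 1.17 ± 0.253 and 1.68 ± 0.375 CPM (SD, n = 5; log2 fold change 0.50 ± 0.19, 95% interval 0.10 to 0.90, edgeR adjusted p = 0.145). Without HFpEF 1, edgeR called Rrm2 higher (0.62, adjusted p = 0.0466).

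Pcna, the sliding clamp of DNA polymerases, had the highest level of these genes, with 8.96, 8.62, 9.40, 8.604 and 8.84 CPM in Control and 8.83, 9.13, 8.50, 8.83 and 8.62 CPM in HFpEF. The 10 libraries were within a narrow range, and Control 3 was the highest. Its log2 fold change was -0.02 ± 0.06 with a 95% interval from -0.14 to 0.11 (edgeR adjusted p = 0.916). Subunits of the MCM helicase spread from -0.01 ± 0.09 (Mcm6) and 0.10 ± 0.13 (Mcm3) to 0.26 ± 0.15 (Mcm5) and 0.29 ± 0.15 (Mcm2). The thymidylate synthase Tyms (-0.06 ± 0.11) lay near 0, and the transcription factor E2f1 (0.34 ± 0.24) had 14 to 47 counts per library. Control 2, singled out after its values were seen, was the lowest library for 4 of the 8 genes, against 8.15% of all genes tested. HFpEF 2, singled out likewise, was the highest for 5, against 8.07%.

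The E2F letters were found in 3 of the 8 replication genes (Mcm3, Mcm5 and Mcm6), against 0.929% of the genes in the promoter table, and in 1 of the 15 mitotic genes (Cdk1). The promoter of Mcm6 is shown because it held the most, 3, at -110, -106 and -47; the first 2 overlap on opposite strands, and the level of Mcm6 hardly differed between the groups.
Mcm6 (chr1:128359706-128359955, minus strand): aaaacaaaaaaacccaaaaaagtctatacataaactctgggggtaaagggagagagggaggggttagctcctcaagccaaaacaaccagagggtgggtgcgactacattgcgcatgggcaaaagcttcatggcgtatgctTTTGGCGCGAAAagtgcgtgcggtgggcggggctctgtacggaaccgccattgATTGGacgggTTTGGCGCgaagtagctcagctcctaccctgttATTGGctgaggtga

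The cyclins and kinases of G1 and S held the 3 highest levels of the set. Per kilobase of exon in Control, Ccnd2 (14.5 CPM), Ccnd1 (12.02) and Cdk4 (7.85) lay above Cdk6 (2.12) and the S-phase cyclin Ccne1 (0.284). Of these 8 genes 0 were called by edgeR and 2 had an unadjusted p below 0.05, where 20.5% of all genes tested had one. The median log2 fold change was 0.02 (-0.03 without Control 3 and -0.01 without HFpEF 2). Cdk6, the partner of D cyclins on chromosome 5 (3341485 to 3531008, mm10), had 30.6, 27.5, 25.1, 29.5 and 35.5 CPM in Control and 44.7, 37.7, 34.3, 34.9 and 33.8 CPM in HFpEF. Every HFpEF library lay above Control 1 to 4, and Control 5 reached into their range. The means were 29.6 ± 3.88 and 37.1 ± 4.51 CPM (SD, n = 5), a log2 fold change of 0.32 ± 0.10 (95% interval 0.11 to 0.53; edgeR adjusted p = 0.0718). Cdk6 was called higher by DESeq2 (adjusted p = 0.0186), and by edgeR without Control 5 (0.40, adjusted p = 0.0151) and without Control 4 and 5 together (0.42, adjusted p = 0.0307).

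Ccnd2, the D cyclin with the highest level, had 149, 129, 132, 143 and 127 CPM in Control and 92.7, 139, 128, 120.2 and 119.6 CPM in HFpEF. HFpEF 1 was the lowest library, and HFpEF 2 and HFpEF 3 lay within the Control range (-0.18 ± 0.09, 95% interval -0.37 to 0.01, edgeR adjusted p = 0.266). Ccnd1 (0.05 ± 0.12) and Ccnd3 (0.09 ± 0.06) were not called. Cyclin E1 (Ccne1) had the lowest fold change of the 37 genes at -0.48 ± 0.21 (edgeR adjusted p = 0.209; 14 to 43 counts), while cyclin E2 (Ccne2) stood at 0.09 ± 0.09. The kinases Cdk2 (-0.07 ± 0.08) and Cdk4 (0.00 ± 0.05) had narrow intervals around 0, that of Cdk4 from -0.12 to 0.12. Exons of Ccnd1, Ccne2 and Cdk4 overlap opposite-strand genes over 17.4% to 23.4% of their length.

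Among the inhibitors, Cdkn1a had the largest difference of the 37 genes and a wide spread. The p21 protein it encodes is induced by p53 and by other stress signals. Its gene (chromosome 17, 29090976 to 29100727, mm10) had 2.95, 3.38, 6.54, 4.15 and 5.54 CPM in Control and 3.72, 6.30, 7.88, 10.4 and 10.9 CPM in HFpEF. HFpEF 3, 4 and 5 lay above every Control library, and HFpEF 1 and 2 lay within the Control range. The means were 4.51 ± 1.502 and 7.84 ± 2.97 CPM (SD, n = 5), a log2 fold change of 0.79 ± 0.32 (95% interval 0.06 to 1.52; edgeR adjusted p = 0.208).

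Cdkn1b had 34.5, 36.6, 35.4, 34.5 and 32.1 CPM in Control and 35.8, 31.1, 32.5, 30.8 and 33.7 CPM in HFpEF. The groups overlapped over most of their range (-0.08 ± 0.05, 95% interval -0.19 to 0.04, edgeR adjusted p = 0.442). Cdkn1c, an imprinted gene, had 12.5, 14.2, 15.5, 11.4 and 11.3 CPM in Control and 10.5, 12.2, 10.2, 10.8 and 14.1 CPM in HFpEF. HFpEF 1, 3 and 4 lay below every Control library and HFpEF 2 and 5 within the Control range (-0.16 ± 0.11, edgeR adjusted p = 0.419). An annotated gene on the opposite strand (Gm44732) overlaps 30.7% of its exonic length.

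**Figure D3:**
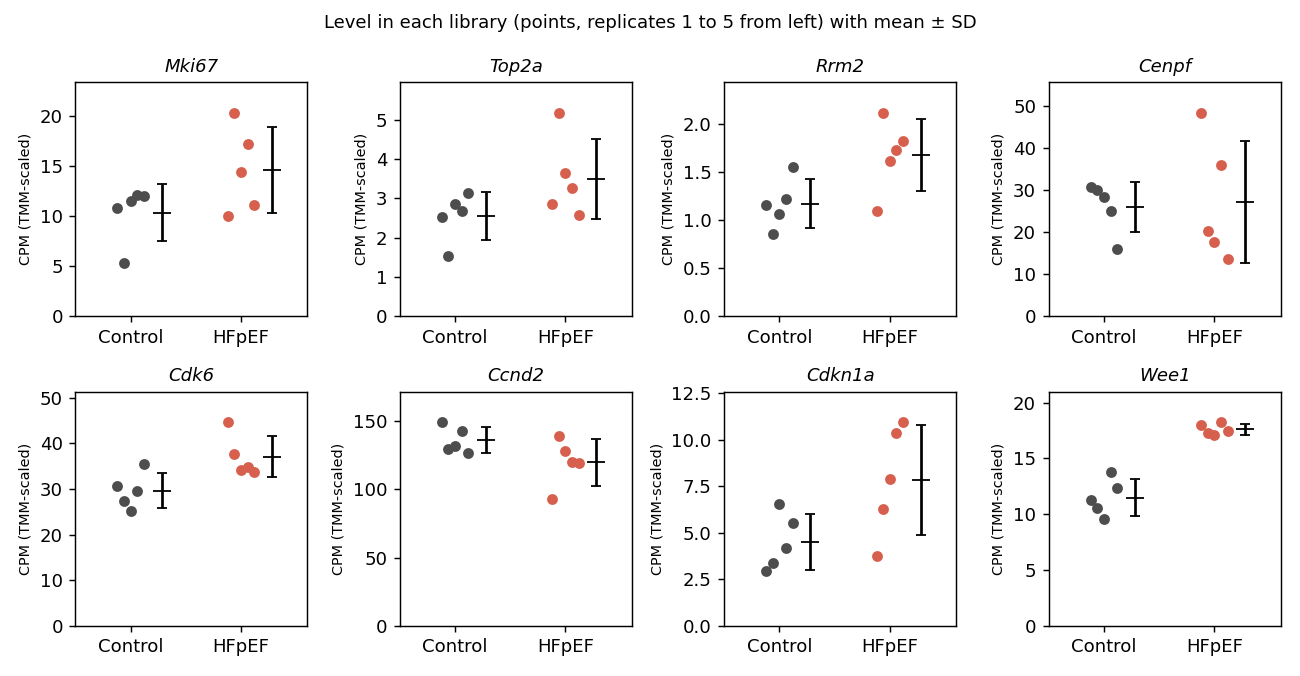
CPM of 8 genes in each library (y axis from 0; points from left are replicates 1 to 5 of each group) with the mean ± SD of the group beside them. The groups overlap for Mki67, Top2a, Rrm2, Cenpf, Cdk6, Ccnd2 and Cdkn1a, and are apart for Wee1, which lies at or below 13.8 CPM in Control and at or above 17.1 CPM in HFpEF.

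Genes of the same machinery outside the set were taken from lists that were chosen with earlier results of these data known. Of 38 tested genes of mitosis and cytokinesis, 31 had a log2 fold change above 0, with a median of 0.29. None were called by edgeR, and 8 had an unadjusted p below 0.05, near the 20.5% of all genes tested that had one. DESeq2 and limma voom called 0 of the 38. The kinase gene Melk had the smallest p (1.33 ± 0.41, edgeR adjusted p = 0.0752), with 0.142 CPM as the mean of Control, and without Control 1 it was called (1.81, adjusted p = 0.0202). The condensin gene Smc2 was called without Control 5 (0.38, adjusted p = 0.0459) and Ckap2l without HFpEF 1 (0.81, adjusted p = 0.0205); both were chosen after their values were seen. Control 2 was the lowest library for 24 of the 38, against 8.15% of all genes tested, and HFpEF 2 the highest for 20, against 8.07%. Both libraries had been singled out above, after their values were seen in these same data. Of 31 genes of replication licensing and the fork, 15 lay above 0 and 16 below, with a median of -0.00. EdgeR, DESeq2 and limma voom called 0 of the 31, and 4 had an unadjusted p below 0.05, against the same 20.5% of all genes. The clamp loader gene Rfc5 had the smallest p (-0.22 ± 0.09, edgeR adjusted p = 0.192).

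Of 36 genes of G1/S control, RB and E2F outside the set, 4 rose and 0 fell, where 3.24% of all genes tested rose and 2.09% fell. The count was 2 without Control 2, Control 5, HFpEF 3, HFpEF 4 or HFpEF 5, and 1 without Control 4 and 5 together. Calls over all genes moved as well, from 599 higher with all 10 libraries to 352 without HFpEF 3. Without 1 library they ran from 352 to 684 higher. Wee1, the kinase that holds Cdk1 inactive before mitosis (chromosome 7, 110122046 to 110143286, mm10), rose with no overlap between the groups. It had 11.2, 10.6, 9.55, 13.8 and 12.4 CPM in Control and 17.97, 17.3, 17.1, 18.3 and 17.5 CPM in HFpEF. The means were 11.5 ± 1.62 and 17.6 ± 0.474 CPM (SD, n = 5; log2 fold change 0.61 ± 0.08, edgeR adjusted p = 0.000531), and the call was kept in all 10 fits that left out 1 library. The circadian clock drives Wee1 transcription in other tissues. Of 18 clock genes tested, 3 fell, where 2.09% of all genes did: the E-box outputs Dbp (-0.57 ± 0.07, edgeR adjusted p = 0.00021) and Ciart (-1.25 ± 0.09, 1.96e-06) and the repressor Nr1d1 (-0.64 ± 0.09, 0.00101). The part of the clock genes in the difference of Wee1 was not tested.

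The antiproliferative gene Btg2 rose as well (18.1 ± 1.05 to 23.4 ± 2.84 CPM, SD, n = 5; 0.37 ± 0.08, edgeR adjusted p = 0.0112), in all 10 fits without 1 library, though not without Control 4 and 5 together (adjusted p = 0.0572). The proto-oncogene Myc, which promotes entry into the cycle, rose from 1.67 ± 0.169 to 2.38 ± 0.311 CPM (0.51 ± 0.13, edgeR adjusted p = 0.029). It passed when Control 1, Control 3 or HFpEF 2 was dropped, and missed the threshold when any of the other 7 was (highest adjusted p 0.0688). Without Control 4 and 5 together its adjusted p was 0.13. Tfdp2, a dimer partner of E2F factors, rose by 0.25 ± 0.07 (edgeR adjusted p = 0.0463), and passed with Control 4, HFpEF 1 or HFpEF 2 dropped but with none of the other 7 dropped (highest 0.116). It also missed the threshold with voom (0.0585), upper-quartile scaling (0.0621) and without Control 4 and 5 together (0.0618).

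Of 21 tested p53 targets and regulators, listed beside Cdkn1a, 1 rose and 0 fell, near the 3.24% of all genes tested that rose, with a median log2 fold change of -0.00. An unadjusted edgeR p below 0.05 was found for 8 of the 21, against 20.5% of all genes tested. Of these 8, 5 had a higher and 3 a lower level in HFpEF. Tigar, a regulator of glycolysis, rose by 0.29 ± 0.08 (edgeR adjusted p = 0.0445). Dropping Control 4 or HFpEF 1 left it called, and dropping any of the other 8 libraries did not (highest adjusted p 0.121). It also missed the threshold with voom (0.0636), upper-quartile scaling (0.0502), without Control 4 and 5 together (0.0522) and without Control 2 and HFpEF 2 together (0.178). The death receptor genes Fas and Eda2r were chosen after their values were seen. Fas was called without Control 4 (0.36, adjusted p = 0.0401) or HFpEF 2 (0.36, 0.0293), and Eda2r was called lower without HFpEF 2 (-0.49, 0.037).

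**Figure D4:**
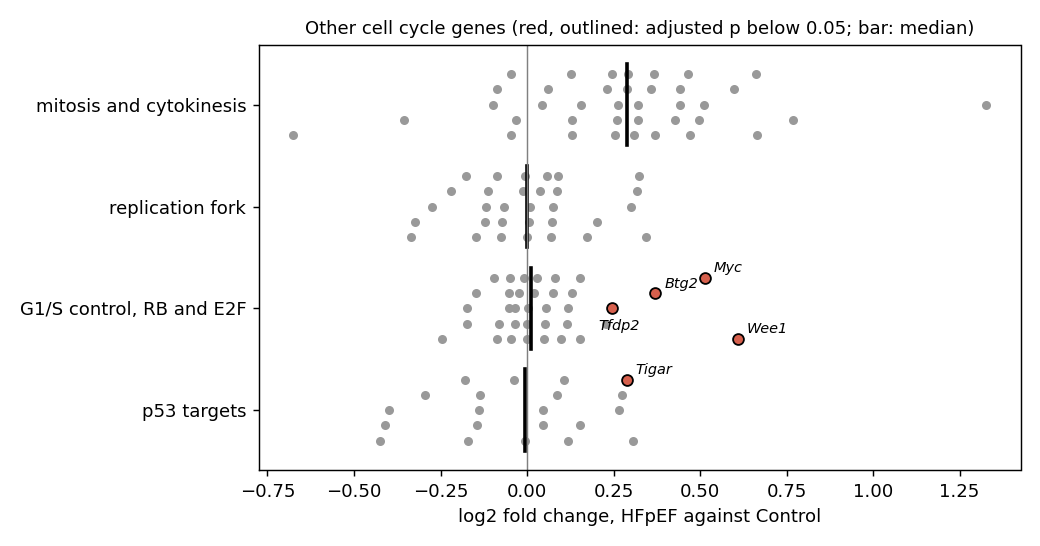
Log2 fold change (x axis, HFpEF against Control) of each tested gene in 4 lists outside the set (rows). Red points with an outline passed an adjusted p of 0.05 by edgeR, and black bars are medians. The median of mitosis and cytokinesis is 0.29 with no gene called, and the called genes are Wee1, Myc, Btg2, Tfdp2 and Tigar.

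Markers of cell types other than cardiomyocytes had these values, where 20.5% of all genes tested had an unadjusted p below 0.05. Macrophage markers (9 of 9 tested) lay below 0, with a median of -0.27 and none called by edgeR (5 at an unadjusted p below 0.05); their sum ran from 126 to 196 CPM in Control and from 109.6 to 139 CPM in HFpEF. Endothelial markers counted 0 higher and 2 lower of 8 (Egfl7 and Emcn), where 2.09% of all genes were called lower, with sums of 989 to 1188 and 939 to 1044 CPM. Fibroblast markers had 0 of 7 called by edgeR and 2 at an unadjusted p below 0.05, with sums of 475 to 631 CPM in Control and 532 to 581 CPM in HFpEF. Erythroid markers had 0 of 6 called by edgeR and 0 at an unadjusted p below 0.05, with sums of 439.7 to 635 and 411 to 713 CPM. Smooth muscle and pericyte markers lay above 0 for 7 of 8 (median 0.17), with 0 called by edgeR and 1 at an unadjusted p below 0.05, and sums of 1044 to 1189 CPM in Control and 1103 to 1199 CPM in HFpEF. Of the Schwann cell markers 3 of 4 could be tested and all 3 lay above 0 (median 0.30), with 0 called by edgeR and 2 at an unadjusted p below 0.05, and sums of 5.18 to 7.23 and 5.80 to 9.11 CPM. Mast cell markers lay above 0 for 3 of 4 (median 0.34), with 0 called by edgeR and 0 at an unadjusted p below 0.05, and sums of 8.45 to 11.3 and 8.96 to 11.97 CPM. Mesothelial markers lay above 0 for 4 of 4 (median 0.19), with 0 called by edgeR and 0 at an unadjusted p below 0.05, and sums of 15.3 to 21.9 and 12.6 to 25.6 CPM. Of 4 tested monocyte and neutrophil markers 1 was called lower, the receptor gene Csf3r (-0.81 ± 0.22, edgeR adjusted p = 0.0479). In that list 3 genes lay below 0 and 1 above, the receptor gene Ccr2 (0.85 ± 0.37, edgeR adjusted p = 0.237). Their sums were 4.94 to 7.89 CPM in Control and 4.93 to 11.6 CPM in HFpEF. Of 4 tested B cell markers 1 fell, the immunoglobulin gene Ighm (-0.33 ± 0.08, edgeR adjusted p = 0.0215), with 3 below 0 and 1 above. Sums of the B cell markers were 6.27 to 6.89 and 4.93 to 6.20 CPM. Of the T and NK cell markers 3 of 8 could be tested, and Cd3d and Cd3g had 0 counts in at least 1 library and at most 5. The part of these cell types in the mitotic genes' values was not tested.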

How the data were processed

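RNA-seq of 10 libraries was analysed. Per the labels' protocols, ventricles were frozen, ribosomal RNA was removed and a Swift Biosciences kit served for the libraries. The deposited values are expected counts per gene, not normalized; the submitters' processing notes list RSEM 1.2.15, Bowtie2 2.1.0 and mm10 but not what each was used for. Annotation release and strand of the libraries are not given in the sources used here. RSEM divides reads that match several transcripts.

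The 92 ERCC sequences, all at 0 counts, were left out. Rounding changed no value. Genes were filtered with edgeR's filterByExpr (minimum count 10), scaled by TMM and tested with edgeR 4.0.16 (R 4.3.3; quasi-likelihood with robust priors and no covariate, Benjamini-Hochberg adjustment over 18491 genes, threshold 0.05). CPM use TMM-scaled library sizes, intervals are 95%, and SE is the log2 fold change divided by the root of F. The test was tested on simulated data. DESeq2 1.42.0 and limma 3.58.1 (voom) were alternatives, with RLE and upper-quartile scaling, other filters, a replicate block and fits without libraries.

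All 37 genes matched GENCODE M21 (mm10) by identifier; exons of 7 overlap an opposite-strand gene over at least 10% of their length, which matters where strand is unknown. Promoters came from RefSeq (GRCm38) for 30 genes; Ccna2, Aurkb, Kif20a, Ccnd1, Ccnd2, Ccne2 and Cdkn1c had no entry. Members and lists were chosen with earlier results of these data known. Values in every library are given for the gene with the smallest p and that with the highest level in each role, Mki67, Top2a and the inhibitors; from the other lists, called genes are named (at most 8 a list), or the gene with the smallest p. The result of 1 clock gene is not reported here. No 2 libraries of a group were as alike as 1 library counted again would be.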

Additional observations from a re-analysis of the deposited data

Results flagged for a closer look

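In 4 of the 78 groups of 5 libraries checked (37 genes and the summed mitotic and replication levels, in each group), 1 library lay far from the others by Dixon's criterion, where chance gives about 1 in 20. Mki67 was lowest in Control 2 at 5.30 CPM, with the next library at 10.8 CPM. E2f1 was lowest in the same library at 0.415 CPM, with the next at 0.863 CPM. Cdc20 was lowest in HFpEF 1 at 0.0939 CPM, which is 3 counts, with the next library at 0.633 CPM. Bub1b was highest in Control 4 at 1.51 CPM, with the next library at 1.12 CPM.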

How the results depend on the processing

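Of 20 alternatives, 15 called none of the 37 genes. DESeq2 (Cdk6), the replicate block (Cdkn1a, 0.78, adjusted p = 0.0173) and the fit without Control 4 and 5 (Cdk6) called 1 higher, and fits without 1 library called 0 to 1 higher; none called a gene lower. The labels do not say whether equal replicate numbers mark a pair. Over all genes tested, correlations of same-numbered libraries' deviations ran from -0.11 to 0.06. Of the 10 libraries, 3 correlated best with their own number. A correlation over all genes cannot show a pairing that touches only some genes, so pairing was not settled. Under the block Myc had an adjusted p of 0.0597. Signs of 28 of the 37 genes held in every alternative. Cenpf turned to -0.0428 with voom, -0.0407 with the replicate block and -0.126 without Control 4 and 5 (-0.243 to 0.24 without 1 library). Mcm6 turned to 0.0469 without Control 4 and 5. Cdk4 turned to -0.0121 with upper-quartile scaling, -9.18e-05 without mitochondrial transcripts and -0.00151 with the stricter filter. Without Control 2 and HFpEF 2, added after seeing the data, Aurka (-0.135), Cenpe (-0.0275), Kif20a (-0.0369) and Ccnd1 (-0.0597) turned.

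Without 1 library, calls over all genes ran from 352 to 684 higher and 202 to 417 lower. Genes called higher numbered 0 to 1 in mitosis and cytokinesis, 2 to 4 in G1/S control, 0 to 2 among p53 targets (0 to 1 lower) and 0 to 1 among clock genes. Log2 fold changes ran from -0.0767 to 0.139 (Aurka), -0.0822 to 0.243 (Cenpe), -0.0479 to 0.0422 (Mcm6), -0.0297 to 0.00466 (Pcna), -0.135 to 0.0143 (Tyms), -0.0159 to 0.14 (Ccnd1) and -0.0342 to 0.0401 (Cdk4).

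Calls over all genes were 926 higher with DESeq2, 393 higher and 213 lower without Control 2 and HFpEF 2. Genes of G1/S control called higher numbered 1 without Control 4 and 5. The p53 targets called higher numbered 2 with RLE scaling, no filter, DESeq2 and the replicate block, and 0 with upper-quartile scaling, voom and without either pair of libraries. Clock genes called higher numbered 0 with upper-quartile scaling, voom, the replicate block and without Control 2 and HFpEF 2, and 2 without Control 4 and 5. The stricter filter left 27 of the 37 genes, 9 of them mitotic, which lowers counts by its construction; other causes were not tested. At most 41 counts in any library for 9 of the 18 mitotic genes limit what could be detected.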
